A study of Drosophila melanogaster with 12 samples.

Results

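The chemosensory receptor genes of Drosophila melanogaster were followed in RNA-seq of wing imaginal discs, the larval epithelia that form the adult wing and thorax. They were taken as every gene of the count table whose FlyBase symbol is Gr, Or or Ir followed by digits and a letter. This gave 180 of 14869 genes, with 57 gustatory receptors (Gr), 60 odorant receptors (Or) and 63 ionotropic receptors (Ir). Of these, 4 (Ir48a, Ir51a, Ir60c and Or98P) are annotated as pseudogenes. The annotation holds 6 further symbols of this form that were not analysed here. Another 1345 identifiers of the count table had no match in the annotation, so any receptor genes among them could not be included. Discs came from 3rd instar larvae raised at 25 °C, and each of 4 genotypes had 3 libraries from independent RNA preparations. The lines named ASH1 WT, ΔBAH and ΔBAH mutAT1 were all w[1118] flies carrying the mutant combination ash1[10]/ash1[22] and an EGFP::ASH1 transgene under the alpha-tubulin promoter. ASH1, a histone methyltransferase of the Trithorax group, was full length in ASH1 WT, lacked its BAH domain in ΔBAH, and lacked the BAH domain and had a mutated first AT hook in ΔBAH mutAT1. The ash1[10] allele still encodes a full-length protein with an inactive SET domain. The wild type was w[1118] without transgene or ash1 mutation. Since every transgenic line carried the promoter, the insertion on chromosome arm 2L and both mutant ash1 chromosomes, and the wild type carried none of them, their parts in any difference from wild type cannot be told apart.

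Insects detect chemicals through 3 large receptor families. Gustatory receptors act in taste neurons of the mouthparts, legs and wing margin, and a clade of them (Gr5a, Gr61a and Gr64a to Gr64f) detects sugars. Odorant receptors act in olfactory neurons together with the co-receptor Orco. Ionotropic receptors derive from glutamate receptors and act in smell, taste, humidity and temperature sensing with the co-receptors Ir8a, Ir25a and Ir76b. The larval wing disc holds precursors of the chemosensory bristles of the wing margin, whose neurons mature later, in the pupa.

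Library totals ranged from 15083960 to 39180697 counts. A gene without counts in a library may have had up to 3, which is 0.0756 CPM (counts scaled to a common library size with TMM factors) in the deepest library and 0.201 CPM in the shallowest. These limits cover counting error only. Genes with exactly 1 count were fewer in ΔBAH mutAT1 replicate 2 (56 genes) and ΔBAH replicate 1 (75 genes) than in the other 10 libraries (272 to 620 genes), and among the receptor genes 0 and 2 stood at exactly 1 count in these libraries, against 4 to 11 in the others. The libraries fall into 3 blocks of consecutive internal sample numbers, taken here, as an inference, as the sequencing runs. ΔBAH mutAT1 and wild type had 1 library in each block, while ASH1 WT and ΔBAH had replicate 1 in the second block and replicates 2 and 3 in the third. Wing disc markers were abundant, with summed levels that ranged from 1025 to 1696 CPM over the 9 transgenic libraries and from 1291 to 1665 CPM over the 3 wild-type libraries. Fat body markers lay at 256 CPM or less in every transgenic library and reached 2822 CPM in 1 wild-type library, and their part in the results below was not tested.

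Most receptor genes were silent or close to it. Of the 180 genes, 76 (42.2%) had 0 counts in all 12 libraries and were called silent. A further 48 (26.7%) had a few counts but never more than 3 in a library and were called trace. Another 50 (27.8%) exceeded 3 counts in at least 1 library without passing a test and were called leaky. Only 13 of these 50 had enough counts to be tested. The remaining 6 (3.33%) passed a test between genotypes and were called switched. Over all genes of the table, 2669 (18.0%) were silent, 1531 (10.3%) were trace, 10436 (70.2%) exceeded 3 counts without a call and 233 (1.57%) were switched. The silent class had similar numbers in each family, with 25 Gr, 25 Or and 26 Ir genes. It included Gr21a, a subunit of the carbon dioxide receptor, Or56a, the geosmin receptor, and Or67d, a receptor for the male pheromone cVA, which were picked as examples after their values were seen. Trace genes numbered 12 Gr, 20 Or and 16 Ir, and leaky genes 16 Gr, 15 Or and 19 Ir. The switched genes were Gr64a, Gr64b, Gr64c, Gr64f, Ir76a and Ir51a, and none was an Or gene. All receptor genes together took 22134 counts, of which 87.5% fell on the 10 most counted genes.

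**Figure D1:**
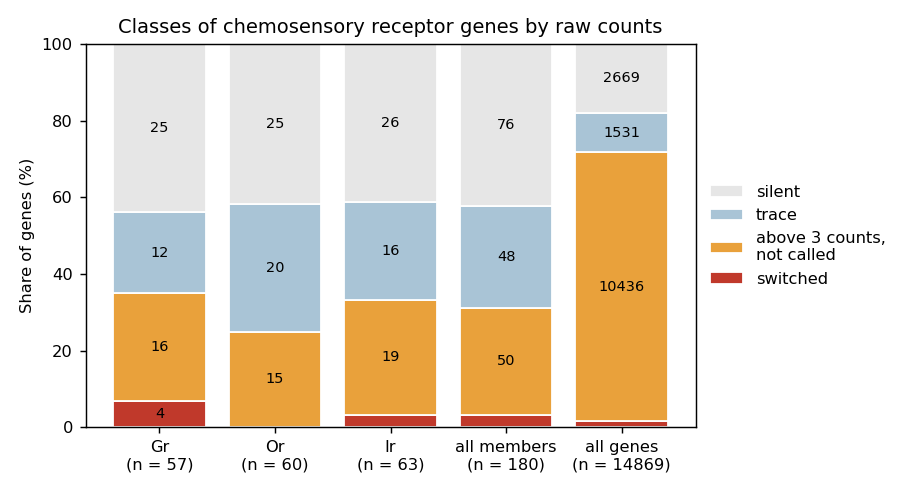
Share of genes (%, vertical axis) in each class of raw counts for the Gr, Or and Ir families, for all 180 receptor genes and for all 14869 genes of the table. Numbers in the bars are genes; 76 of the 180 receptor genes were silent, against 2669 of 14869 genes.

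The leaky class was itself faint. Of its 50 genes, 27 never exceeded 10 counts in a library and 3 (Or43b, Gr61a and Ir62a) exceeded 100. Among the 56 leaky and switched genes, 20 exceeded 3 counts in exactly 1 library, and 34 of all 180 genes had their counts in 1 library alone. Only 13 of the 180 genes had a count in every library.

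Genotypes were compared with edgeR's quasi-likelihood test over the 8346 genes with enough counts, with Benjamini-Hochberg adjustment, and a gene was called at an adjusted p below 0.05. The filter kept 19 of the 180 receptor genes. Genes that are high in some genotypes and silent in others pass such a filter only through the genotypes where they are high, so the share called among the 19 carries no weight. ASH1 WT against wild type gave 5 receptor genes, all higher, where 1.92% of all tested genes were called (1.31% higher and 0.611% lower). ΔBAH against wild type gave the same 5 genes, all higher, where 1.93% of all tested genes were called (1.26% higher and 0.671% lower). ΔBAH mutAT1 against wild type gave these 5 genes and 1 lower gene, where 2.17% of all tested genes were called (1.34% higher and 0.827% lower). The comparisons with wild type share their wild-type libraries. Between transgenic lines this fit called no receptor gene. ΔBAH against ASH1 WT had 1 receptor gene with an unadjusted p below 0.05 (0% of all tested genes called), ΔBAH mutAT1 against ΔBAH had 1 (0.0479% called, 0.024% in each direction), and ΔBAH mutAT1 against ASH1 WT had 2 (0.0479% called, 0.024% in each direction). DESeq2 called 0, 1 and 1 receptor genes in these comparisons, the called gene being Ir51a, where it called 5, 23 and 11 of all 8346 tested genes. With limma-voom 0 receptor genes were called in each, and 2, 4 and 4 of all 14869 genes. EdgeR with the inferred run as covariate called Ir51a in ΔBAH mutAT1 against ΔBAH, among 15 calls over all 8346 tested genes. In bulk samples, more cells of a type and more RNA per cell cannot be told apart.

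The Gr64 cluster, 6 sugar receptor genes in a row on chromosome arm 3L, held 4 of the 6 switched genes, and all 4 were nearly silent in wild type and clearly counted in every transgenic library. Gr64a (FBgn0045479, BDGP6 3L, 4026769 to 4028600, plus strand), a receptor for sugars such as sucrose and maltose, had 507, 425 and 378 counts in ASH1 WT, 407, 255 and 214 in ΔBAH, 512, 715 and 255 in ΔBAH mutAT1, and 4, 2 and 3 in wild type. The lowest transgenic library stood far above the highest wild-type library. In CPM this was 21.8 ± 4.17, 14.7 ± 0.52 and 16.0 ± 2.44 in ASH1 WT, ΔBAH and ΔBAH mutAT1, and 0.118 ± 0.0602 in wild type (SD, n = 3 each). The log2 fold changes against wild type were 7.60, 7.03 and 7.15 (SE 0.32 each), with adjusted p of 3.1e-07, 6.26e-07 and 5.33e-07.

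Gr64f (FBgn0052255, 3L, 4035799 to 4037575), which is required with other sugar receptors for responses to many sugars, had 284, 157 and 134 counts in ASH1 WT, 275, 77 and 54 in ΔBAH, 290, 289 and 112 in ΔBAH mutAT1, and 0, 0 and 0 in wild type. It was the one switched gene without a single wild-type count. Against 3 counts over the wild-type libraries it was 262-fold higher in ASH1 WT, 194-fold higher in ΔBAH and 215-fold higher in ΔBAH mutAT1. With the counting error of the transgenic counts included, the lower 95% limits of its ratios to wild type were 212.7, 157.1 and 174.2. Its adjusted p were 8.94e-05, 0.000129 and 0.000128. Of its exonic bases, 3.67% are shared with CG11593 on the opposite strand. CG11593 itself averaged 84.8 ± 0.87, 81.2 ± 2.82 and 81.4 ± 9.98 CPM in the transgenic lines, in the same order, and 84.6 ± 4.07 CPM in wild type (SD, n = 3 each), and was not called.

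Gr64b (FBgn0045478) and Gr64c (FBgn0045477) lie between them. In BDGP6 both have the same exons (3L, 4028605 to 4032032), so 100% of the exonic bases are shared and the split of reads between them, made on an older annotation, is uncertain. Gr64b had 193, 202 and 137 counts in ASH1 WT, 210, 99 and 88 in ΔBAH, 248, 133 and 99 in ΔBAH mutAT1, and 1, 0 and 2 in wild type. The 3 wild-type counts put its ratio to wild type at 243 (95% counting interval 82.6 to 1181) in ASH1 WT, 190 (64.5 to 924) in ΔBAH and 149 (50.7 to 726) in ΔBAH mutAT1. Its adjusted p were 7.96e-05, 0.000112 and 0.000168. Gr64c had 278, 231 and 203 counts in ASH1 WT, 266, 171 and 94 in ΔBAH, 312, 283 and 175 in ΔBAH mutAT1, and 1, 2 and 1 in wild type. Its log2 fold changes of 7.81, 7.37 and 7.38 (SE 0.41 each) had adjusted p of 1.65e-06, 2.91e-06 and 2.84e-06. Both genes followed the on and off pattern of Gr64a and Gr64f.

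Gr64d (FBgn0035486) and Gr64e (FBgn0045476, a receptor for glycerol) stayed at a few counts. Gr64d had 1, 6 and 2 counts in ASH1 WT, 3, 10 and 4 in ΔBAH, 9, 0 and 5 in ΔBAH mutAT1, and 0, 0 and 0 in wild type. Gr64e had 3, 7 and 7 counts in ASH1 WT, 5, 5 and 1 in ΔBAH, 16, 0 and 5 in ΔBAH mutAT1, and 0, 0 and 0 in wild type. The filter removed both, and without the filter neither was called, with unadjusted p of 0.0233, 0.0113 and 0.0214 for Gr64d and 0.00898, 0.0168 and 0.0116 for Gr64e in ASH1 WT, ΔBAH and ΔBAH mutAT1 against wild type and adjusted p of 0.335 or more. Against 3 counts over the wild-type libraries, Gr64d was 4.11-fold, 8.13-fold and 4.35-fold higher in ASH1 WT, ΔBAH and ΔBAH mutAT1, and Gr64e 7.76-fold, 5.26-fold and 6.53-fold higher. With the counting error of the 9 to 21 transgenic counts included, the lower 95% limits were 2.70, 5.92 and 3.09 for Gr64d and 5.65, 3.60 and 4.86 for Gr64e. Both were at 0 in ΔBAH mutAT1 replicate 2, the library with the fewest genes at 1 count, although Gr64a had its highest count there. In BDGP6, 97.3% of the exonic bases of Gr64d and 99.1% of those of Gr64e are shared between them. Gr64b and Gr64c, which have the same exons in BDGP6, had between 88 and 312 counts each in the transgenic libraries. How reads on shared bases were counted on the older annotation is not known. The values of Gr64d and Gr64e therefore cannot be read as their levels, and the part of the counting in them was not tested.

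**Figure D2:**
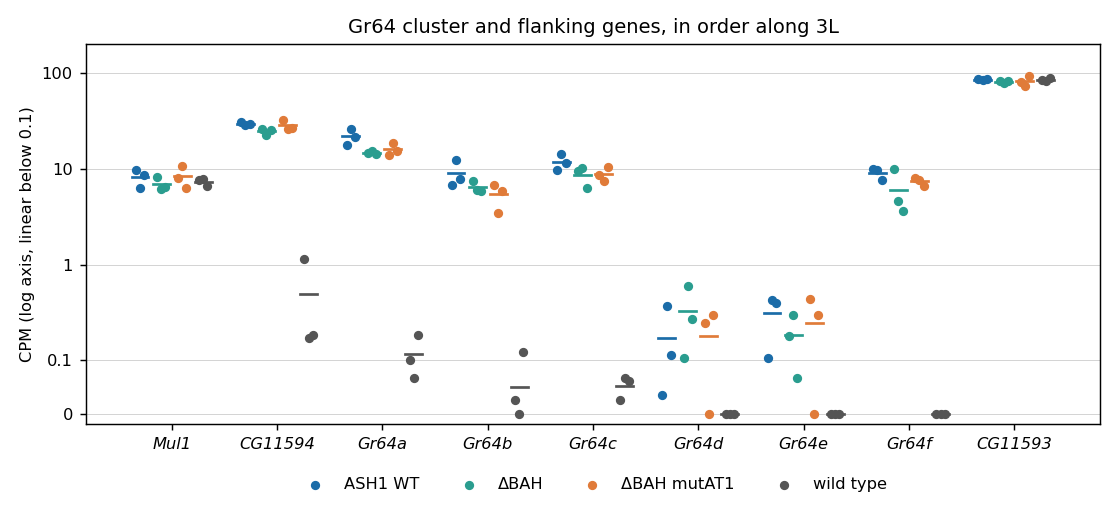
CPM of each library (points, log axis, linear below 0.1) and genotype means (bars) for the Gr64 genes and their flanking genes in order along 3L. Gr64a, Gr64b, Gr64c and Gr64f, and CG11594 to their left, are high in all 9 transgenic libraries and near 0 in wild type, while Mul1 and CG11593 overlap between genotypes.

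The change reached beyond the receptor genes on the left side of the cluster. CG11594, on the opposite strand 758 bp from Gr64a, had 865, 463 and 514 counts in ASH1 WT, 722, 373 and 381 in ΔBAH, 1183, 997 and 448 in ΔBAH mutAT1, and 45, 5 and 3 in wild type. Its log2 fold changes were 5.73, 5.48 and 5.68 (SE 0.55 each) with adjusted p of 0.000231, 0.000249 and 0.000248. Mul1, whose annotated span overlaps that of CG11594, averaged 8.16 ± 1.71, 6.93 ± 1.14 and 8.35 ± 2.23 CPM in ASH1 WT, ΔBAH and ΔBAH mutAT1, and 7.30 ± 0.62 CPM in wild type (SD, n = 3 each), and was not called. The genes that rose thus formed one stretch from CG11594 to Gr64f, bounded on both sides by genes without a call, with Gr64d and Gr64e inside it removed by the filter and not called without it. The cluster lies 15.6 Mb from ash1 on the same arm.

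No gene of the cluster was called between transgenic lines. Summed over the 6 genes, ΔBAH mutAT1 had 37.9, 37.2 and 38.8 CPM, ΔBAH had 41.7, 37.1 and 30.5 CPM, and ASH1 WT had 44.5, 63.2 and 48.9 CPM, against 0.151, 0.136 and 0.369 CPM in wild type. All libraries of ΔBAH mutAT1 and ΔBAH were below all ASH1 WT libraries. Hemocyte markers moved partly along, with 5 of 6 higher on average in ASH1 WT than in both other lines and none of the 6 called. Hemocyte sums were 24.9 to 42.6 CPM in ΔBAH mutAT1, 26.5 to 50.3 CPM in ΔBAH and 44.7 to 86.4 CPM in ASH1 WT, against 25.4 to 41.4 CPM in wild type. ASH1 WT replicate 2 was the highest library in both the hemocyte and the Gr64 sum. Of the neuron markers, 6 of 7 were likewise higher on average in ASH1 WT than in both other lines. Their sums overlapped, at 19.7 to 54.1 CPM in ΔBAH mutAT1, 19.5 to 68.4 CPM in ΔBAH and 18.4 to 73.2 CPM in ASH1 WT. The part of either marker set in the difference was not tested. For the single genes, ΔBAH against ASH1 WT gave log2 fold changes of -0.56 (SE 0.22) for Gr64a, -0.47 (SE 0.41) for Gr64b, -0.44 (SE 0.26) for Gr64c and -0.58 (SE 0.36) for Gr64f, with unadjusted p of 0.0253, 0.268, 0.119 and 0.142 and adjusted p of 1. ΔBAH mutAT1 against ASH1 WT gave -0.45, -0.74, -0.43 and -0.30 for the same genes, likewise with adjusted p of 1. These neighbouring genes are not independent of each other, and within the second block, which has 1 library per line, ΔBAH mutAT1 had a sum of 37.2 CPM, ΔBAH of 41.7 CPM and ASH1 WT of 44.5 CPM. Per kilobase of exon, as RPKM (CPM divided by exonic length in kilobases), Gr64a was the highest of the cluster, at 10.7 RPKM for ΔBAH mutAT1, 9.91 for ΔBAH and 14.7 for ASH1 WT. Gr64f stood at 5.11 RPKM for ΔBAH mutAT1, 4.17 for ΔBAH and 6.28 for ASH1 WT. Gr64b and Gr64c together, over their shared exons, stood at 4.96, 5.30 and 7.29 RPKM, so no order is given between them and Gr64f.

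Ir76a (FBgn0260874, 3L, 19799278 to 19803427), an olfactory receptor for amines that works with Ir76b, was the one switched gene outside the cluster that was higher in the transgenic lines. It had 306, 71 and 109 counts in ASH1 WT, 244, 106 and 102 in ΔBAH, 298, 359 and 119 in ΔBAH mutAT1, and 6, 0 and 1 in wild type. The groups were far apart, at 7.10 ± 3.29, 7.31 ± 1.25 and 8.22 ± 1.15 CPM in the transgenic lines, in this order, and 0.0709 ± 0.076 CPM in wild type (SD, n = 3 each). Log2 fold changes were 6.41, 6.45 and 6.62 (SE 0.63 each) with adjusted p of 0.000248, 0.00022 and 0.000237. Between transgenic lines the differences were within 0.21 on the log2 scale (SE 0.44). The gene lies 200.5 kb from ash1, and 14.1% of its exonic bases are shared with CG14102 on the opposite strand. CG14102 averaged 9.64 ± 1.90, 8.79 ± 2.54 and 9.29 ± 1.37 CPM in the transgenic lines and 6.36 ± 0.235 CPM in wild type, and was not called. The partner receptor Ir76b, 509.7 kb from ash1, had 9 counts in ΔBAH replicate 1, 2 counts in wild-type replicate 1 and 0 in the other 10 libraries.

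Ir51a, a pseudogene on 2R (FBgn0033997, 15204654 to 15206334), was the only receptor gene that the main fit called lower in a transgenic line than in wild type, and this was in ΔBAH mutAT1. It had 31, 24 and 19 counts in ΔBAH mutAT1, 71, 70 and 58 in ASH1 WT, 74, 58 and 53 in ΔBAH, and 162, 110 and 63 in wild type. In CPM, where depth is taken into account, ΔBAH mutAT1 averaged 0.870 ± 0.254, below 3.36 ± 0.907 in ASH1 WT, 3.23 ± 0.505 in ΔBAH and 3.90 ± 0.174 in wild type (SD, n = 3 each), and its libraries did not overlap those of any other genotype. The log2 fold change against wild type was -2.18 (SE 0.32, adjusted p = 0.00387). Against ΔBAH it was -1.91 (SE 0.32, adjusted p = 0.104) and against ASH1 WT -1.96 (SE 0.32, adjusted p = 0.118), which did not pass in the edgeR test. DESeq2 called both, and a fit with the inferred run as covariate called the first. Within the blocks, the ratio of ΔBAH mutAT1 to wild type was 0.208, 0.168 and 0.292. Its neighbour Ir51b remained at trace, with at most 2 counts in a library.

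Of the sugar receptors outside the cluster, Gr61a was tested and not called, and the filter removed Gr5a and Gr43a. Gr61a (FBgn0035167, 3L, 841451 to 843701), a glucose receptor, had 272, 126 and 140 counts in ASH1 WT, 320, 159 and 103 in ΔBAH, 402, 465 and 119 in ΔBAH mutAT1, and 195, 88 and 12 in wild type. In CPM all transgenic libraries lay above all wild-type libraries, with means of 8.42 ± 0.989 for ASH1 WT, 9.30 ± 2.28 for ΔBAH and 10.1 ± 2.65 for ΔBAH mutAT1, against 2.88 ± 2.09 for wild type (SD, n = 3 each). The log2 fold changes of 1.52, 1.66 and 1.78 (SE 0.50 each) had adjusted p of 0.253, 0.181 and 0.14. Wild-type replicate 3 alone was at 0.739 CPM, and within the blocks ΔBAH mutAT1 was 2.24, 4.07 and 9.61 times wild type. DESeq2 and the fit with the inferred run called Gr61a in all 3 comparisons, and the replicate block called it in ΔBAH mutAT1 against wild type. Gr5a, the trehalose receptor on the X chromosome, stayed low and mixed, with 8, 6 and 2 counts in ASH1 WT, 6, 2 and 1 in ΔBAH, 6, 21 and 0 in ΔBAH mutAT1, and 5, 10 and 5 in wild type. Gr43a, a fructose receptor, had 2, 0 and 1 counts in ASH1 WT, 12, 6 and 3 in ΔBAH, 4, 0 and 1 in ΔBAH mutAT1, and 7, 2 and 0 in wild type. Gr5a and Gr43a were chosen for this comparison after their values were seen.

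**Figure D3:**
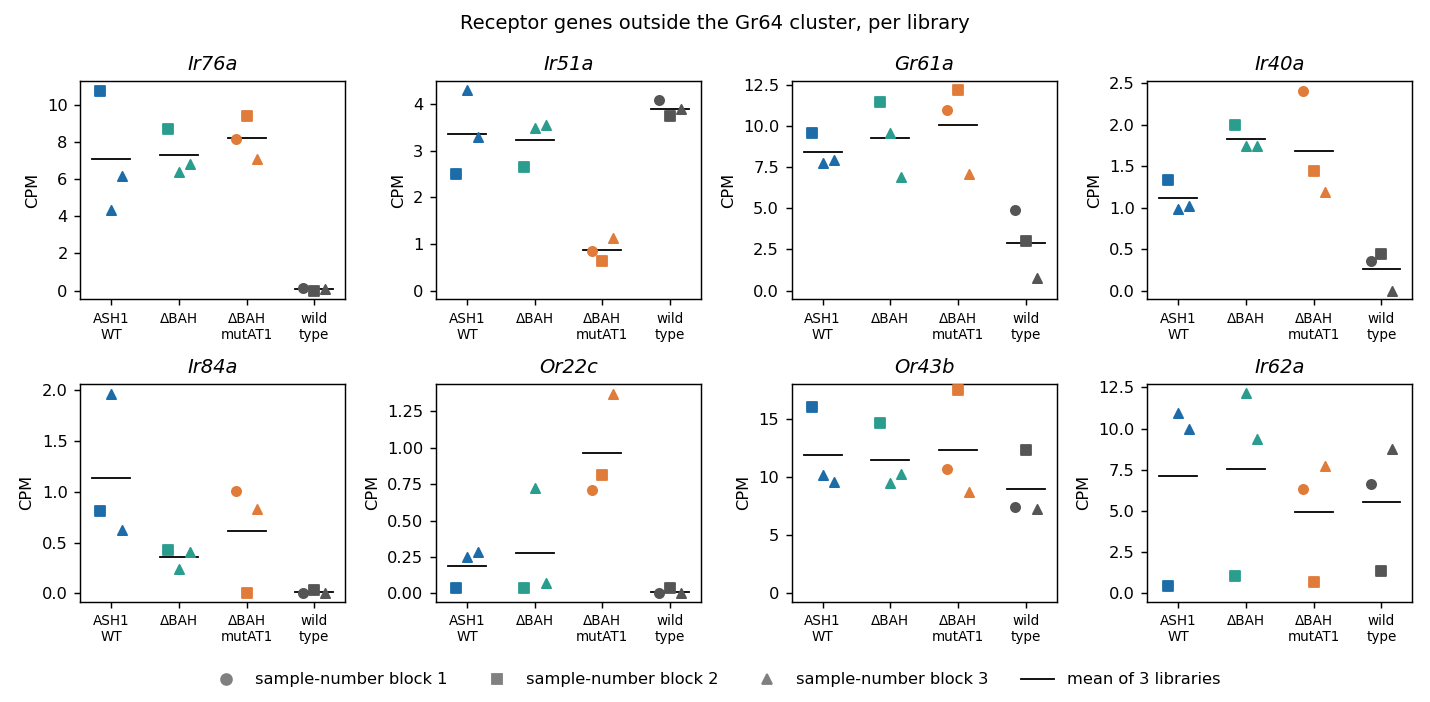
CPM of each library (points, shaped by block of internal sample numbers) and genotype means (lines) for 8 receptor genes outside the Gr64 cluster. Ir76a is near 0 in wild type, Ir51a is lowest in ΔBAH mutAT1, and Or43b and Ir62a separate by the second block.

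Ir40a (FBgn0259683, 2L), needed for sensing dry air, had 38, 16 and 18 counts in ASH1 WT, 56, 29 and 26 in ΔBAH, 88, 55 and 20 in ΔBAH mutAT1, and 14, 13 and 0 in wild type. All transgenic libraries exceeded all wild-type libraries in CPM, yet the log2 fold changes of 1.95, 2.66 and 2.54 (SE 0.67 to 0.68) had adjusted p of 0.3, 0.09 and 0.105. Ir7f (FBgn0259188, X) ran the other way, with 18, 6 and 6 counts in ASH1 WT, 26, 1 and 3 in ΔBAH, 8, 14 and 3 in ΔBAH mutAT1, and 45, 39 and 22 in wild type. Its CPM were lower in every transgenic library than in every wild-type library, with log2 fold changes of -1.47, -1.57 and -2.26 (SE 0.71 to 0.73) and adjusted p of 0.64, 0.569 and 0.247. DESeq2 and the fit with the inferred run called Ir40a in all 3 comparisons and Ir7f in ΔBAH mutAT1 against wild type.

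A few genes crossed the floor of 3 counts between genotypes without a call. Ir84a (FBgn0037501, 3R), a receptor for phenylacetic acid that promotes male courtship, had 23, 32 and 11 counts in ASH1 WT, 12, 4 and 6 in ΔBAH, 37, 0 and 14 in ΔBAH mutAT1, and 0, 1 and 0 in wild type. ASH1 WT and ΔBAH were above 3 counts in each library, wild type in none, and the 0 in ΔBAH mutAT1 was again replicate 2. Its ratios to wild type were 90.4 (95% counting interval 15.7 to 3622), 31.6 (5.10 to 1302) and 47.6 (8.16 to 1915), with adjusted p of 0.0865, 0.32 and 0.177. Without ΔBAH mutAT1 replicate 2, Ir84a was called in all 3 comparisons with wild type. Or22c (FBgn0026396, 2L), a larval odorant receptor, stood out in ΔBAH mutAT1 with 26, 31 and 23 counts, against 1, 4 and 5 in ASH1 WT, 1, 12 and 1 in ΔBAH, and 0, 1 and 0 in wild type. Its ratio of ΔBAH mutAT1 to wild type was 74.6 (13.01 to 2983, adjusted p = 0.055), and its log2 fold change against ASH1 WT was 2.40 (SE 1.03, unadjusted p = 0.0394, adjusted p = 1). The replicate block, limma-voom and DESeq2 each called Or22c in ΔBAH mutAT1 against wild type. Ir31a (FBgn0051718, 2L), an antennal receptor, was the reverse case, with 0, 3 and 1 counts in ΔBAH, against 5, 7 and 7 in wild type. It had 1, 1 and 4 counts in ASH1 WT and 3, 19 and 0 in ΔBAH mutAT1, so only ΔBAH and wild type lay on opposite sides of the floor. The filter removed Ir31a, so the main fit did not test it.

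Or43b and Ir62a, both among the most counted leaky genes, were not called and separated by block. Or43b (FBgn0026393, 2R), an antennal odorant receptor, had the most counts of any receptor gene after Gr64a, with 455, 165 and 169 in ASH1 WT, 410, 158 and 153 in ΔBAH, 390, 669 and 146 in ΔBAH mutAT1, and 295, 363 and 117 in wild type. Its level was 12.3 to 17.5 CPM in the 4 libraries of the second block and 7.20 to 10.7 CPM in the other 8, without overlap. Within each block, however, every transgenic library was above the wild-type library, by 1.19 to 1.44 times. With the inferred run as covariate its log2 fold changes against wild type were 0.44, 0.40 and 0.44 (SE 0.14 to 0.15), with unadjusted p of 0.014, 0.0238 and 0.00858 and adjusted p of 0.108, 0.16 and 0.0959. Of its exonic bases, 40.7% are shared with Cul1, a broadly expressed gene at 349 to 381 CPM on genotype average, and whether Or43b counts come from Cul1 transcripts was not tested. Ir62a (FBgn0053971, 3L), which lies within the span of Iml1, showed the opposite split. It had 12, 178 and 176 counts in ASH1 WT, 30, 202 and 140 in ΔBAH, 231, 25 and 130 in ΔBAH mutAT1, and 263, 39 and 142 in wild type. The second block held 0.421 to 1.32 CPM and the other libraries 6.32 to 12.1 CPM, and within the blocks its ratios to wild type ran from 0.318 to 1.39. Many other genes separated by block too, since 16.7% of all tested genes were lower and 13.9% higher in each library of the second block than in each of the rest.

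The remaining leaky genes named by the count rule were flat or uneven across genotypes. Ir68a, a receptor for moist air, ranged from 0.680 to 3.75 CPM over the 12 libraries, Or2a from 0.185 to 2.12 CPM, Ir85a from 0.421 to 1.49 CPM, Or7a, an antennal odorant receptor, from 0.107 to 1.10 CPM and Or67a from 0.183 to 0.676 CPM. None of them was called in any comparison. The lowest adjusted p among them was 0.582, for Ir85a in ASH1 WT against wild type, at a log2 fold change of -0.98 (SE 0.45).

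Receptor co-factors had few counts, never more than 10 in a library. The broad Ir co-receptor Ir25a had 10 counts in ΔBAH replicate 1, at most 4 in any other library and 0 in 7 of the 12. Ir8a had 4 counts in all, 1 in ΔBAH and 3 in ΔBAH mutAT1. The odorant co-receptor Orco, which is not one of the 180 genes, had 7 counts in ΔBAH mutAT1 replicate 3 and 0 in the other 11 libraries. Neuron markers other than Rdl were counted in every genotype, while Rdl had 5 counts in ASH1 WT replicate 2 and 0 in the other libraries. The 5 of 7 neuron markers that were tested were not called. Summed levels of the 7 ran from 18.4 to 73.2 CPM over the transgenic libraries and from 18.3 to 64.5 CPM over the wild-type libraries. Of the 7, Syt1, nSyb and onecut had a higher mean in every transgenic line than in wild type, brp had a lower one, and elav, futsch and Rdl had no common direction over the lines. Syt1 averaged 2.34, 1.82 and 1.80 CPM in ASH1 WT, ΔBAH and ΔBAH mutAT1 and 0.999 CPM in wild type, whereas elav averaged 23.0, 27.2 and 22.6 CPM in these lines and 27.1 CPM in wild type. Their part in the results was not tested. Markers of the sensory organ lineage lay between 98.9 and 129 CPM over all libraries and were not called.

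Of 102 other chemosensory genes (odorant binding proteins, pickpocket channels, CheA and CheB genes, Orco and the Snmp genes), 35 were silent, 28 were trace and 39 exceeded 3 counts in a library. The filter kept 17, and 1 of them rose in each transgenic line while none fell. This was ppk29, a channel subunit used in pheromone detection, with 1038, 567 and 598 counts in ASH1 WT, 1010, 494 and 464 in ΔBAH, 1055, 1214 and 453 in ΔBAH mutAT1, and 271, 168 and 100 in wild type. In contrast to the Gr64 genes it was clearly counted in wild type, and it averaged 35.1, 32.3 and 29.2 CPM in the transgenic lines and 6.23 CPM in wild type. None of the 6 tested odorant binding protein genes was called.

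Most switched genes lay on 1 chromosome arm. Arm 3L held 35 of the 180 receptor genes and 5 of the 6 switched ones, and 2R held the other. Only tested genes could be switched, and 10 of the 19 tested receptor genes lay on 3L. Of its 5 switched genes, 4 belong to the Gr64 cluster, which spans 10.8 kb, so they are not independent of each other. Over all tested genes, receptor genes included, 3L also had a larger share of calls than the table as a whole. It had 2.86%, 3.06% and 3.13% in ASH1 WT, ΔBAH and ΔBAH mutAT1 against wild type. Larger shares were also found for 2R, with 1.95%, 2.47% and 2.73%, and for chromosome 4, with 2.90% each (2 of 69 genes). Arm 3R was mixed, with 2.13%, 1.81% and 2.35%, where 1.92%, 1.93% and 2.17% of all tested genes were called. The shares were smaller for 2L, with 1.05%, 0.902% and 1.43%, and for X, with 1.53%, 1.53% and 1.30%. This is a description without a test. The ash1 gene lies on 3L, and every transgenic line carries mutant ash1 chromosomes. Their part in the calls on this arm was not tested and cannot be told apart from that of the promoter and the insertion. Of the 67 non-receptor genes next to the named receptor genes, 46 were tested and 2 were called in each comparison with wild type, CG11594 beside Gr64a and CG3191 beside Or2a on the X chromosome. CG3191, 2578 bp from Or2a, had 45, 10 and 15 counts in ASH1 WT, 28, 18 and 11 in ΔBAH, 70, 26 and 28 in ΔBAH mutAT1, and 0, 0 and 0 in wild type, although Or2a itself was not called. For each receptor gene, only the nearest non-receptor gene that does not overlap it was looked at. Overlapping genes, such as CG11593 at Gr64f and Cul1 at Or43b, were left out. This nearest gene was expressed (mean of at least 10 CPM over the 12 libraries) and within 1000 bp for 8 of 76 silent genes (10.5%). The same held for 4 of 48 trace genes (8.33%), 10 of 50 leaky genes (20.0%) and 3 of 6 switched genes. For the switched gene Gr64a this neighbour was CG11594, which rose with it and averaged only 0.496 CPM in wild type. The median level of the nearest non-overlapping, non-receptor gene was 0.115 CPM for silent, 0.194 CPM for trace and 15.4 CPM for leaky genes. This is a description of neighbourhoods and was not tested.

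Summed over all 180 genes, ASH1 WT had 93.3, 116 and 96.0 CPM, ΔBAH had 90.3, 91.7 and 77.9 CPM and ΔBAH mutAT1 had 87.0, 88.6 and 84.2 CPM, against 33.1, 30.6 and 30.8 CPM in wild type. Every transgenic library was above every wild-type library, mainly through the Gr64 cluster. Without the 6 switched genes the sums lay between 35.8 and 45.7 CPM over the transgenic libraries and between 26.5 and 28.7 CPM over the wild-type libraries. With Gr61a left out too, they lay between 26.1 and 37.0 CPM over the transgenic libraries and between 23.7 and 25.7 CPM over the wild-type libraries. The closest libraries were ΔBAH replicate 1 at 26.1 CPM and wild-type replicate 3 at 25.7 CPM. These sums still held Or43b and Ir62a, which separated by block. Or43b alone stood at 14.7 CPM in ΔBAH replicate 1 and 7.20 CPM in wild-type replicate 3. A rise shared by the remaining receptor genes therefore cannot be read from these sums.

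**Figure D4:**
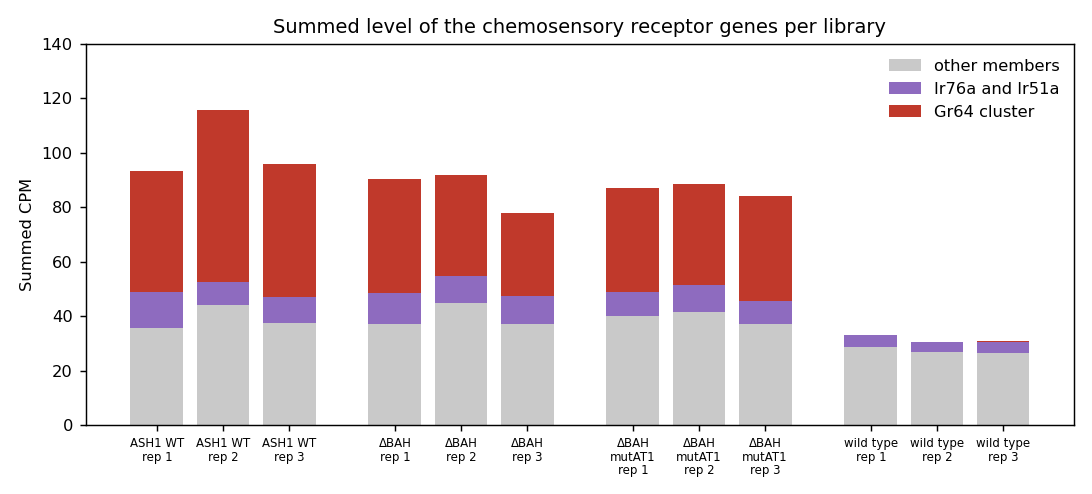
Summed CPM of the 180 receptor genes in each library, divided into the Gr64 cluster, Ir76a with Ir51a, and all other receptor genes. The Gr64 part lies between 30.5 and 63.2 CPM in the transgenic libraries and at or below 0.369 CPM in wild type.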

How the data were processed

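RNA was sequenced from wing discs of 4 genotypes with 3 libraries each. The authors sequenced single-end reads of 50 bp in 3 runs, aligned them to the BDGP5 (dm3) genome with TopHat 2.0.9, counted them per Ensembl gene with HTSeq 0.5.4p3 and deposited raw counts. Strand and multiple-mapping options are not given in the sources used here. Symbols and positions came from BDGP6 (Ensembl 115), matched by identifier for 13524 of 14869 genes.

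Counts were fitted in edgeR 4.0.16 (R 4.3.3) with filterByExpr (minimum count 10), TMM factors and 1 coefficient per genotype over all 12 libraries. P-values were adjusted over 8346 genes (Benjamini-Hochberg). Each standard error is the size of the log2 fold change divided by the root of its F statistic. CPM are counts over TMM-scaled library size, and RPKM use exonic lengths of BDGP6. The procedure was tested on simulated data.

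Named are switched genes, their cluster members (same family and number), genes crossing a floor of 3 counts between genotypes, the 10 most counted of the rest, and Ir8a, Ir25a and Ir76b. Genes and lists were chosen with earlier results of these data known. Alternatives were RLE factors, DESeq2 1.42.0, limma-voom (limma 3.58.1) on all genes, no filter, only the 6 libraries compared, a replicate block, inferred run as covariate, leaving out each library, floors of 1 and 10 counts, and, added after seeing the data, leaving out the second block. Replicate numbers paired the libraries for ΔBAH mutAT1 and wild type (correlations of deviations 0.561, 0.682 and 0.729) and for ΔBAH and ASH1 WT (0.924, 0.780 and 0.710), where equal numbers share a block.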

Additional observations from a re-analysis of the deposited data

How the results depend on the processing

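The direction and call of the switched genes held in all 320 values recomputed under the alternatives. Ir51a in ΔBAH mutAT1 against wild type ranged from -2.40 to -1.99 on the log2 scale, with adjusted p up to 0.0275. The number of receptor genes called moved from 5 to 8 in ASH1 WT against wild type with DESeq2 and with the inferred run as covariate, from 5 to 7 with both in ΔBAH against wild type, and from 6 to 11 (DESeq2) and 10 (inferred run) in ΔBAH mutAT1 against wild type. Calls over all tested genes rose as well, from 160, 161 and 181 to 350, 376 and 354 (DESeq2) and 609, 522 and 538 (inferred run) in these comparisons. The receptor count moved from 0 to 1 in ΔBAH mutAT1 against ΔBAH with both, and from 0 to 1 in ΔBAH mutAT1 against ASH1 WT with DESeq2. Calls over all tested genes rose there too, from 4 to 23 (DESeq2) and 15 (inferred run) in the former and from 4 to 11 (DESeq2) in the latter. The genes gained were Gr61a, Ir40a, Ir84a, Ir7f, Or22c and Ir51a, and the cause was not tested. The replicate block gave 5, 5 and 8 genes against wild type in ASH1 WT, ΔBAH and ΔBAH mutAT1, and 0 between transgenic lines, gaining Gr61a and Or22c in the last comparison with wild type and changing no other call. Leaving out 1 library at a time gave 5 to 6, 5 to 6 and 6 to 7 genes against wild type and 0 between transgenic lines. With a floor of 1 count, 23 genes were trace and 75 leaky. With a floor of 10 counts, 75 were trace and 23 leaky. Of the 161 receptor genes that the filter removed, 76 had no counts, and none of the other 85 was called without the filter (lowest adjusted p = 0.335, with 6 genes at an unadjusted p below 0.05 in a comparison).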
